A study of Mus musculus with 5 samples.

Results

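The mouse genome encodes a large superfamily of potassium channel genes, whose symbols begin with Kcn. A gene was taken here when it was protein-coding, lay on chromosomes 1 to 19 in the mm9 GENCODE vM1 annotation, and had a symbol made of Kcn, 1 or more letters and a number. This gave 91 of 21281 autosomal protein-coding genes, in 20 subfamilies. The 2 genes of this name on chromosome X were outside the rule. The 91 genes were grouped as 39 voltage-gated pore subunits, 15 inward rectifiers, 14 tandem pore domain channels, 8 calcium- or sodium-activated and related channels and 15 auxiliary subunits. The group of 8 is called calcium- or sodium-activated below, although it includes the related gene Kcnu1.

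H3K27me3, the trimethylated form of lysine 27 of histone H3, was measured by ChIP-Seq in mouse embryonic fibroblasts (MEFs) isolated from an E13.5 embryo with loxP sites in the Eed gene. All cells compared here shared this floxed background and were transduced with lentivirus, from an EF1a promoter vector with puromycin selection, to express H3.3K27R, H3.3K27M or human EZHIP. Each of these 3 groups was 1 library of 1 transduced line, and the parental Control and EEDnull libraries were not analysed here. Each list gave only the positions of broad peaks, so that the depth is unknown, no test of a condition could be made, and every count below describes 1 library per group with no replicates.

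Polycomb Repressive Complex 2 (PRC2) deposits H3K27me3 on genes that are silent in a given cell type, and CpG islands, stretches of DNA dense in the dinucleotide CG, are its known sites of recruitment. H3.3 K27M, an oncohistone of paediatric glioma, and EZHIP, a protein of posterior fossa ependymoma, both inhibit PRC2, whereas H3.3 K27R does not and served here as the reference. Potassium channels let potassium ions leave the cell along their gradient, which sets the resting potential and ends action potentials. Most were described in neurons, muscle, kidney or glands.

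The sequences around the start sites differed widely in CG content. Shown here are the 3 promoters with most CG among the genes whose start lay in a peak of all 3 lists, followed by the 3 with fewest among the genes whose start lay in a K27R peak alone. Each is 250 bases before and 50 bases from the annotated start, read 5′ to 3′ from the mm9 reference on the strand of the gene, with every CG in capitals. A CG reads the same on both strands, and 95.1% of the windows of all 21281 genes held at least 1. The 3 windows retained in all lists held 51, 49 and 41 CG. Kcnh2 is on the minus strand at chr5:23857373-23857672, Kcng3 on the minus strand at chr17:84031186-84031485 and Kcnj4 on the minus strand at chr15:79335622-79335921. The other 3 windows held 0, 0 and 2 CG. Kcna10 is on the plus strand at chr3:106985724-106986023, Kcnma1 on the minus strand at chr14:24622477-24622776 and Kcnj15 on the plus strand at chr16:95478915-95479214.
Kcnh2: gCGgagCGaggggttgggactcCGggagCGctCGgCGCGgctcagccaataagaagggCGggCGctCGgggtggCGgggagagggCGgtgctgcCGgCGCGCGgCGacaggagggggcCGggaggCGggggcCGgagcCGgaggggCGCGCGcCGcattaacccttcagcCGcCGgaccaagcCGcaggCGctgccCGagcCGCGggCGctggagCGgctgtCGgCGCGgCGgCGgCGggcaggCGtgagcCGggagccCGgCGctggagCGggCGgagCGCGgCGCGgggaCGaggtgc
Kcng3: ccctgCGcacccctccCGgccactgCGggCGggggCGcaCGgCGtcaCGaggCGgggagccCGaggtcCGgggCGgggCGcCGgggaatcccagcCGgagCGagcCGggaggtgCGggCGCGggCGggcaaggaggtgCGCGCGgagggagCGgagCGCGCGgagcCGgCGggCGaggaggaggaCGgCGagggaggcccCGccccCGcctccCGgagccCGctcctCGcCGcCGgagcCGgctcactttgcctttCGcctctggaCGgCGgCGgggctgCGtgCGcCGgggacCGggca
Kcnj4: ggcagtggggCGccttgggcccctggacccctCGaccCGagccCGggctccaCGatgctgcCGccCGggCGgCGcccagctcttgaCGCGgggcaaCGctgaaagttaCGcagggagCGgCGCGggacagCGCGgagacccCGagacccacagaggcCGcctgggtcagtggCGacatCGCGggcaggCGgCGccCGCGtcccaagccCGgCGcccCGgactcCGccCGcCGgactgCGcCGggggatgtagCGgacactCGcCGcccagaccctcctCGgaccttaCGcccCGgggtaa
Kcna10: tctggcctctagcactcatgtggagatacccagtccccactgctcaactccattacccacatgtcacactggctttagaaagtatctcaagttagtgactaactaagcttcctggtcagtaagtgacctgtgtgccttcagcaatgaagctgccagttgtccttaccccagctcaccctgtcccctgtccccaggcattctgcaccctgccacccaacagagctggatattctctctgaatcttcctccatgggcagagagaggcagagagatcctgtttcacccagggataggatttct
Kcnma1: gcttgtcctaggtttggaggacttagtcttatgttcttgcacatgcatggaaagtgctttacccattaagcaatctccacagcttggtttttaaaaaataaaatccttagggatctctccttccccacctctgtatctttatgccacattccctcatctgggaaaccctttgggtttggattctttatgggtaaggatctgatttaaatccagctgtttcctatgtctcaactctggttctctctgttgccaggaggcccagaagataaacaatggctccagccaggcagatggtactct
Kcnj15: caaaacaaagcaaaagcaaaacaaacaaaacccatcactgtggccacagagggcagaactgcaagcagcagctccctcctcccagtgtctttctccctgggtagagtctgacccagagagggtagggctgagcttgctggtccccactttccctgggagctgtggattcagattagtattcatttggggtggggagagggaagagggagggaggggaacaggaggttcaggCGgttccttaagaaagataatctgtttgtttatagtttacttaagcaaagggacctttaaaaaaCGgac

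The start sites of 71 of the 91 genes lay in a K27R peak, which is 78.0% (exact Clopper-Pearson interval at 95%, 68.1 to 86), against 28.2% of all autosomal protein-coding genes. In the K27M list 51 start sites lay in a peak, which is 56.0% (45.2 to 66.4) against 8.93% of all genes. In the EZHIP list there were 38, which is 41.8% (31.5 to 52.6) against 7.96%. Potassium channel promoters were therefore found in H3K27me3 peaks more often than protein-coding promoters at large in each of the 3 lists. Such intervals cover counting error only and treat genes as independent, and 71 start sites lay in 65 distinct K27R regions.

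The lists were nested at the annotated 5′ ends of these genes. All 51 start sites in a K27M peak were also in a K27R peak, and all 38 in an EZHIP peak were also in a K27M peak. Thus 38 genes were in all 3 lists, against 6.8% of all genes, 13 were in K27R and K27M alone, against 2.13% of all genes in K27M but not EZHIP, and 20 were in K27R alone, against 18.2% of all genes. The remaining 20 were in no list, against 71.7% of all genes. No potassium channel start lay in an EZHIP peak without a K27M peak, which for 0 of 91 allows a share of up to 3.97%, and among all genes 1.15% did. The nesting had 1 exception, Kcne2, when any transcript start or a window of 2000 or 5000 bp was used, with 44 genes in the EZHIP list and 43 in both. At the annotated starts the nesting was not particular to potassium channel genes. An EZHIP peak without a K27M peak was found for 0 of 44 glutamate, GABA and glycine receptor genes. It was also found for 0 of 25 calcium, 0 of 25 transient receptor potential and 0 of 13 sodium channel genes. Among 10 partners of potassium channels it was found for 1.

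A larger share of the marked potassium channel starts than of marked starts at large lay in the other lists. Among the 71 genes marked in the K27R list, 51 lay in a K27M peak, a share of 71.8% (59.9 to 81.9) against 31.6% of all genes marked in the K27R list. The same share for EZHIP was 53.5% (41.3 to 65.5) against 28.1%. Of the genes with a K27M peak, 74.5% also had an EZHIP peak, close to the 76.2% of all genes. In the other direction, the share of EZHIP genes that also had a K27M peak was 100% (90.7 to 100), against 85.5% of all genes. All 14 glutamate, GABA and glycine receptor genes with an EZHIP peak had a K27M peak too.

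**Figure D1:**
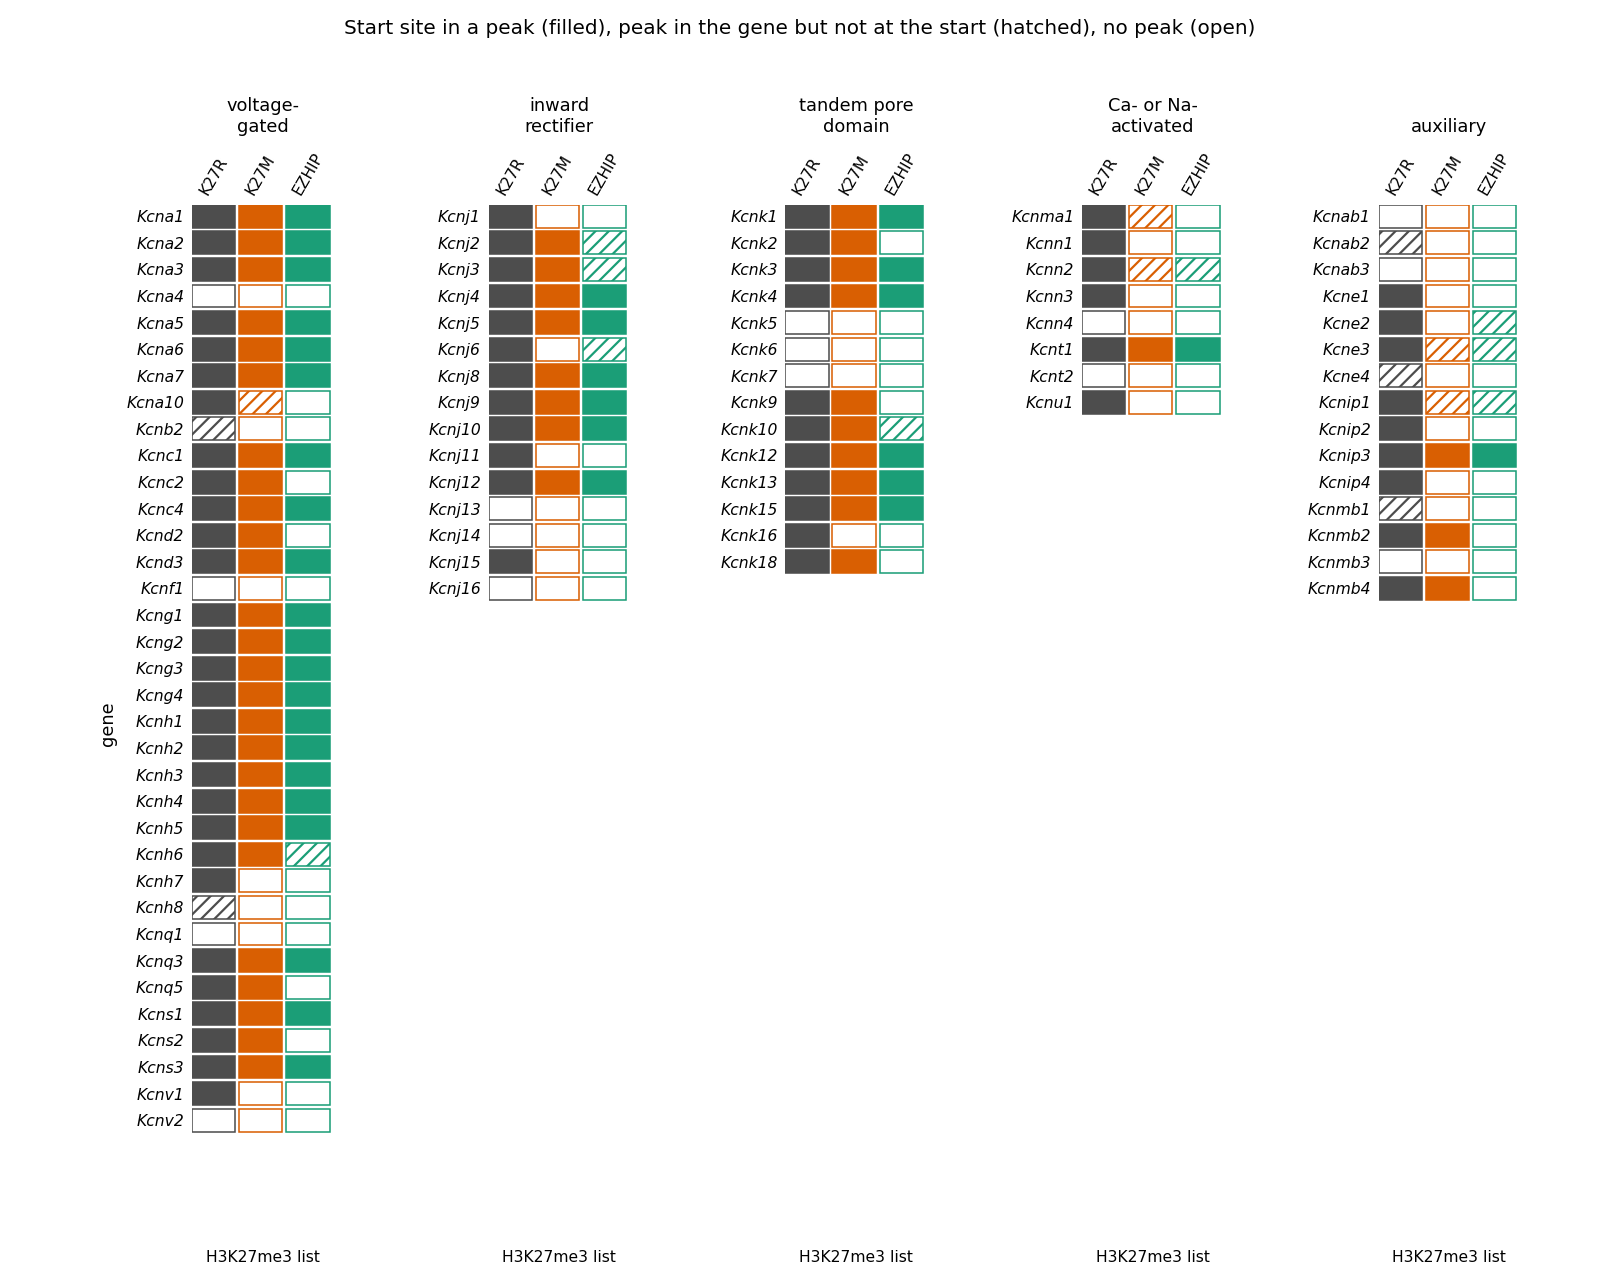
Each gene shown (87 of 91) is a line of 3 boxes, for the K27R (grey), K27M (orange) and EZHIP (green) lists, in 5 columns by class. A filled box is a start site in a peak, a hatched box a peak elsewhere in the gene and an open box no peak, and the voltage-gated column is filled most densely while the auxiliary and the calcium- or sodium-activated columns have few filled K27M or EZHIP boxes. Kcnq1 lies in a stretch of chromosome 7 where no list held a peak.

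Over the gene bodies the order of the lists was the same for the 91 genes together. At least 1 bp of the annotated gene overlapped a K27R peak for 76 of the 91 genes, against 34.3% of all genes. A K27M peak overlapped 56 gene bodies, against 11.3%, and an EZHIP peak 47, against 10.9%. Among the 15 inward rectifiers the order was reversed, with 8 bodies overlapping a K27M peak and 9 an EZHIP peak. What differed was how much of a gene was covered. Among the genes with any overlap, the median share of the gene body covered was 100% in the K27R list, 29.2% in the K27M list and 29.1% in the EZHIP list. For 40 of the 71 genes marked at the start in the K27R list, the whole gene lay inside the region, a count not made over all genes.

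**Figure D2:**
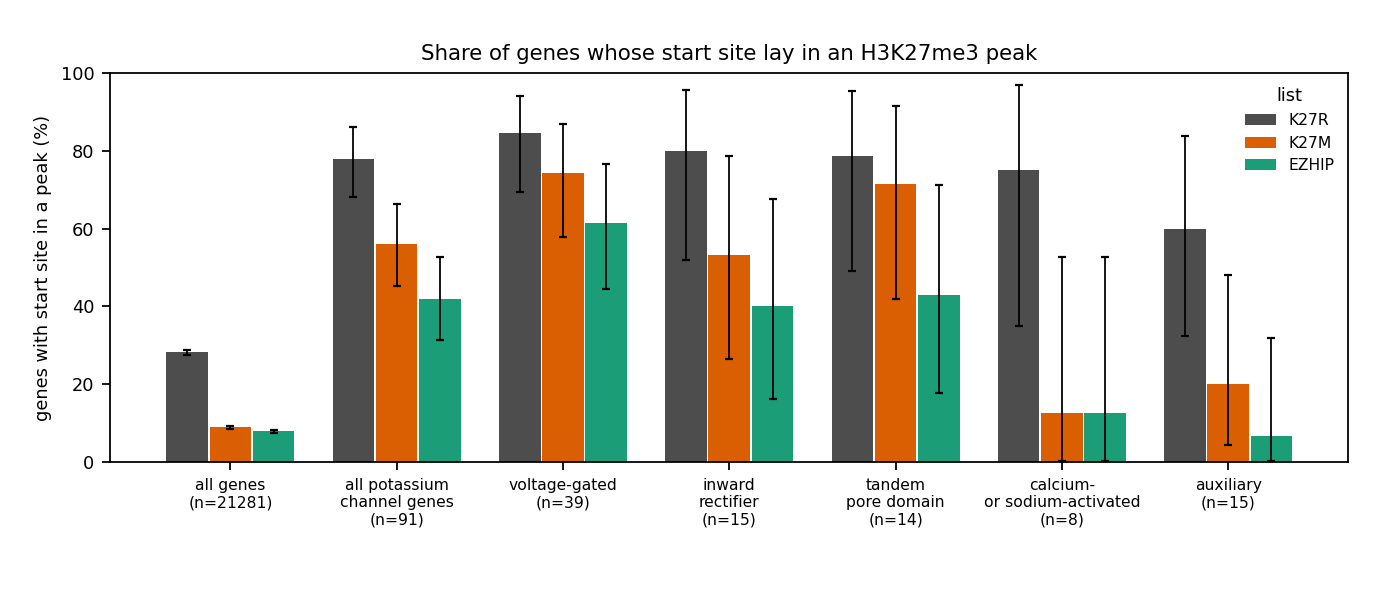
Bars give the percentage of genes whose start site lay in a peak of the K27R, K27M or EZHIP list, for all autosomal protein-coding genes, all 91 potassium channel genes and their 5 classes, and error bars are exact intervals at 95% for counting error. All genes stand at 28.2, 8.93 and 7.96%, and the potassium channel genes at 78.0, 56.0 and 41.8%.

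The classes differed less in the K27R list than in the others. Between 60% (auxiliary) and 84.6% (voltage-gated) of start sites lay in a K27R peak. In the K27M list the share was 74.4% for voltage-gated genes, 71.4% for tandem pore domain genes, 53.3% for inward rectifiers, 20% for auxiliary subunits and 12.5% for calcium- or sodium-activated genes. In the EZHIP list the same classes had 61.5%, 42.9%, 40%, 6.67% and 12.5%. With 8 to 39 genes in a class the intervals are wide. That of the voltage-gated class in the EZHIP list, 44.6 to 76.6%, did not overlap that of the auxiliary subunits, 0.169 to 31.9%, a pair chosen after its values were seen. Those of the voltage-gated, tandem pore domain and inward rectifier classes overlapped in every list.

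Voltage-gated channels open on depolarization and repolarize excitable cells. Of these 39 genes, 33 start sites lay in a K27R peak, 29 in a K27M peak and 24 in an EZHIP peak. The Kcna subfamily, the Shaker-type delayed rectifiers of axons, lymphocytes and muscle, had 8 members, of which 7 were in the K27R list and 6 in each of the others. Kcna5, Kcna1 and Kcna6 are neighbours on chromosome 6, with 94.9 kb between the starts of Kcna1 and Kcna6, and shared 1 K27R region of 323.2 kb. In the other lists each had a peak of its own. Kcna1, an axonal channel mutated in episodic ataxia, had a K27M peak of 40 kb and an EZHIP peak of 11.2 kb. Kcna5, which carries the ultrarapid current of the atrium, had peaks of 43.2 kb and 22.8 kb. For Kcna6 the widths were 17 kb and 5.6 kb. The cluster therefore split from 1 shared region into separate peaks over each start, and all 6 K27M peaks in the region, these 3 included, covered 36.8% of it and all 7 EZHIP peaks 14.4%.

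A second cluster, Kcna2, Kcna3 and Kcna10 on chromosome 3, behaved likewise for 2 of its 3 genes. All 3 start sites lay in a K27R region of 331.0 kb that also held 5 other protein-coding starts. Kcna2, another axonal channel, had a K27M peak of 15.8 kb and an EZHIP peak of 9.0 kb. Kcna3, the main voltage-gated channel of T cells, had peaks of 10.6 kb and 6.4 kb. Kcna10 lay in neither, with the nearest K27M peak 6.03 kb and the nearest EZHIP peak 15.6 kb from its start. Its promoter, printed above, held 0 CG, while those of Kcna2 and Kcna3 held 31 and 37. The count did not divide the subfamily. Kcna1, Kcna5, Kcna6 and Kcna7 held 12, 4, 7 and 4 CG and were in all 3 lists, whereas Kcna4 held 18. Kcna7, on chromosome 7, had a K27R region of 23.6 kb, a K27M peak of 8.6 kb and an EZHIP peak of 3.6 kb. Kcna4 was in no list, with the nearest K27R peak 336.0 kb away.

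The Kcnc genes encode Shaw-type channels of fast-spiking neurons. Kcnc1 had a K27R region of 293.8 kb, a K27M peak of 10.2 kb and an EZHIP peak of 6.2 kb. Kcnc4 had a region of 270.8 kb and peaks of 26.8 kb and 18.2 kb. Kcnc2 differed from both. Its K27R region was 18.6 kb wide and its K27M peak 5.2 kb, and the nearest EZHIP peak was 1260 kb away.

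The Shal-type genes Kcnd2 and Kcnd3 carry transient A-type currents in dendrites and heart. Kcnd3 lay in the second widest K27R region over any potassium channel start, 594.2 kb, which held no other protein-coding start. Its K27M peak was 11.8 kb and its EZHIP peak 9.0 kb. The K27M peak, the only 1 in that region, covered 1.99% of it, and all 3 EZHIP peaks there covered 2.22%. Kcnd2 had a K27R region of 13.8 kb and a K27M peak of 5.0 kb, with the nearest EZHIP peak 643.0 kb away. Kcnb2 had K27R peaks in 2.71% of its body and none at its start.

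The electrically silent subunits Kcnf, Kcng, Kcns and Kcnv do not conduct alone and modify Kcnb channels with which they assemble. All 4 Kcng genes were in all 3 lists. Kcng1 had a K27R region of 210.6 kb, a K27M peak of 20.4 kb and an EZHIP peak of 13 kb. Kcng2 had a region of 124.4 kb and peaks of 51.8 kb and 14.4 kb. The annotated model of Kcng2 spans only 0.705 kb. Kcng3 had a region of 58.4 kb and peaks of 14.4 kb and 11.6 kb. For Kcng4, in a K27R region of 108.0 kb, the K27M and EZHIP peaks began and ended on the same bins and were both 7.8 kb wide. Of the Kcns genes, Kcns1 and Kcns3 were in all lists. The widths were 251.8, 6.2 and 2.6 kb for Kcns1 and 46.8, 7.0 and 3.4 kb for Kcns3, in the order K27R, K27M and EZHIP. Kcns2 kept a K27M peak of 4.8 kb in a K27R region of 323.4 kb with the nearest EZHIP peak 156.0 kb away. Kcnv1 had the narrowest K27R peak of all, 4.6 kb, and was in no other list, and Kcnv2 and Kcnf1 were in none.

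The Kcnh genes encode the ether-à-go-go family, which includes the hERG channel of cardiac repolarization, Kcnh2. Of 8 members, 7 were in the K27R list, 6 in the K27M list and 5 in the EZHIP list. Kcnh1 had a K27R region of 359.6 kb over a gene of 319.0 kb, and a K27M peak of 10.2 kb and an EZHIP peak of 6.2 kb at its start. Kcnh2, at chr5:23825407-23857422, had a region of 200.2 kb and peaks of 18.2 kb and 11.8 kb. Kcnh5 had a region of 117.0 kb and peaks of 10.4 kb and 6.6 kb. In these 3 genes the long region gave way to a peak over the start. Kcnh3, a channel of forebrain neurons, did not follow this pattern. Its peak was 19.8 kb wide in the K27R list, 20.2 kb in the K27M list and 18.6 kb in the EZHIP list. In Kcnh4 the widths were 24.8, 13.4 and 15.8 kb. Kcnh6 had a K27R region of 68.4 kb and a K27M peak of 20.6 kb, and its EZHIP peak of 17.6 kb began 763 bp inside the gene. Kcnh7 was in the K27R list alone (24 kb), and Kcnh8 had K27R over 1.45% of its body and none at its start.

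The Kcnq genes encode slowly activating channels that dampen firing in neurons and repolarize the heart. Kcnq3, a subunit of the neuronal M current, had a K27R region of 91.8 kb, a K27M peak of 7.2 kb and an EZHIP peak of 5.2 kb. Kcnq5, a gene of 564.0 kb, had the narrowest K27M peak, 1.8 kb, in a K27R peak of 9.0 kb, with the nearest EZHIP peak 1480 kb away. Kcnq1, a cardiac and epithelial channel in an imprinted domain, lay in the last 7.73 Mb of chromosome 7. No list held a peak in that stretch, which contains 165 protein-coding starts, so its place among the genes in no list cannot be read as absence of H3K27me3.

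**Figure D3:**
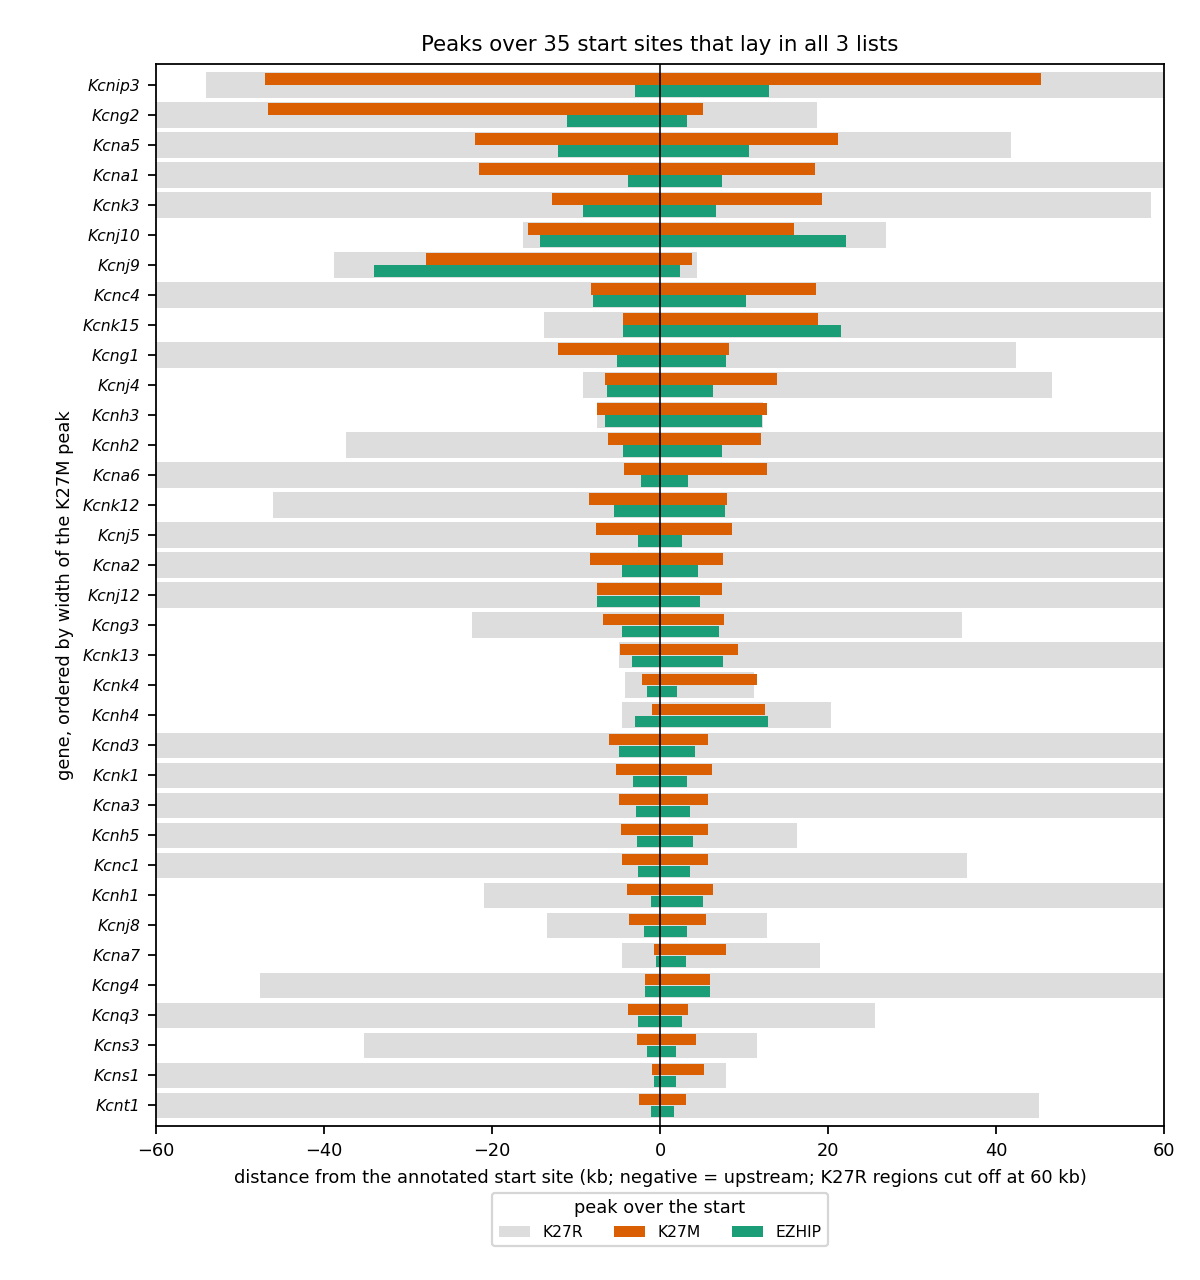
Horizontal bars show, for 35 of the 38 genes in all 3 lists, how far the peak over the start reached upstream (negative) and downstream in kb, with K27R in grey (cut off at 60 kb each way), K27M in orange and EZHIP in green. Genes are ordered by the width of the K27M peak, from 92.4 kb (Kcnip3) to 5.6 kb (Kcnt1), and most green bars lie within the orange bar.

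Inward rectifiers pass potassium more easily into than out of the cell and hold the resting potential. Of 15 genes, 12 start sites lay in a K27R peak, 8 in a K27M peak and 6 in an EZHIP peak. Kcnj2, Kcnj4 and Kcnj12 encode strong rectifiers of heart, muscle and brain. Kcnj4 had a K27R region of 55.8 kb, a K27M peak of 20.4 kb and an EZHIP peak of 12.6 kb. Kcnj12 had a region of 208.2 kb and peaks of 14.8 kb and 12.2 kb. Kcnj2 had a region of 45.8 kb and a K27M peak of 3.0 kb, and an EZHIP peak of 1.6 kb began 123 bp from its start. Its neighbour Kcnj16, 98.1 kb away, was in no list.

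Kcnj3, Kcnj5, Kcnj6 and Kcnj9 encode the G protein-gated channels that slow the heart and inhibit neurons. Kcnj3 had a K27R region of 30.4 kb and a K27M peak of 5.2 kb, while an EZHIP peak of 1.6 kb began 20 bp from the annotated start, within 1 bin. Kcnj5 had a K27M peak of 16.2 kb and an EZHIP peak of 5.2 kb in a K27R region of 323.4 kb. That region also held Kcnj1, the secretory channel of the kidney, 28.2 kb away, and Kcnj1 was in no other list. The start of Kcnj6 was in the K27R list alone (9.2 kb), and K27R peaks covered 90.1% of its body. An EZHIP peak of 5.2 kb lay 243.0 kb into Kcnj6, and no K27M peak overlapped that gene. Kcnj9 and the glial channel gene Kcnj10, 11.9 kb apart on chromosome 1, were the only pair to share a peak in every list. The shared peak was 43.2 kb wide in the K27R list, 31.6 kb in the K27M list and 36.4 kb in the EZHIP list.

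Kcnj8 and Kcnj11 encode the pore of ATP-sensitive channels and differed. Kcnj8, the vascular form, had a K27R region of 26.2 kb, a K27M peak of 9.2 kb and an EZHIP peak of 5.2 kb. Kcnj11, the form of the pancreatic beta cell, lay in a K27R region of 37.0 kb and in no other list, with the nearest K27M peak 75.2 kb away. Kcnj15 was also in the K27R list alone (50.6 kb), and Kcnj13 and Kcnj14 were in none.

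Tandem pore domain channels carry the background leak of potassium. Of 14 genes, 11 start sites lay in a K27R peak, 10 in a K27M peak and 6 in an EZHIP peak. The acid-sensitive channels Kcnk3 and Kcnk15 were in all 3 lists. Kcnk3 had a region of 305.8 kb and peaks of 32.2 kb (K27M) and 15.8 kb (EZHIP). Kcnk15 had a region of 152.6 kb and peaks of 23.2 kb and 26 kb. Their relative Kcnk9 had a K27R region of 25.2 kb and a K27M peak of 4.8 kb, with the nearest EZHIP peak 653.0 kb away.

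The mechanosensitive channels are Kcnk2, Kcnk4 and Kcnk10. Kcnk4 had a K27R peak of 15.4 kb, the narrowest of the genes in all 3 lists, with a K27M peak of 13.8 kb and an EZHIP peak of 3.6 kb. Kcnk2 had a region of 49.6 kb and a K27M peak of 7.8 kb, and the nearest EZHIP peak was 594.0 kb away. Kcnk10 had a region of 42.8 kb and a K27M peak of 9.0 kb, and its EZHIP peak of 4.4 kb began 750 bp from the start.

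Kcnk1, a weak inward rectifier of kidney and brain, lay in the widest K27R region over any potassium channel start, 728.8 kb, with a K27M peak of 11.4 kb and an EZHIP peak of 6.4 kb. Kcnk12 and Kcnk13 had regions of 117.4 kb and 131.2 kb, K27M peaks of 16.4 kb and 14.0 kb, and EZHIP peaks of 13.2 kb and 10.8 kb. Kcnk18, a channel of sensory neurons, lay at the edge of a K27M peak of 94.0 kb that also covered the homeobox gene Vax1. That peak reached 91.7 kb upstream and 2.26 kb downstream of the Kcnk18 start, the K27R region was the third widest, 444.2 kb, and the nearest EZHIP peak was 6.74 kb away. Kcnk16 was in the K27R list alone (29.2 kb), and Kcnk5, 87.4 kb from it, was in none, as were Kcnk6 and Kcnk7.

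The 8 calcium- or sodium-activated genes were mostly marked in the K27R list alone. Of these, 6 start sites lay in a K27R peak and 1 in a peak of each of the other lists. That gene was Kcnt1, a sodium-activated channel of neurons, with a K27R region of 295.6 kb, a K27M peak of 5.6 kb and an EZHIP peak of 2.8 kb. Its paralog Kcnt2 was in no list, with a K27R peak 1.19 kb from the start. The large-conductance channel Kcnma1 had a K27R region of 89.8 kb at its annotated start and small K27M peaks 221.0 and 343.0 kb into the gene. The K27M and EZHIP peaks nearest to that start were 194.0 and 197.0 kb away, outside the annotated gene. Whether the annotated 5′ end of Kcnma1 is complete was not checked. The small-conductance channels Kcnn1, Kcnn2 and Kcnn3 lay in K27R peaks of 23.6, 12 and 231.2 kb and in no other list. Kcnn2 had another transcript start 291.0 kb downstream that did lie in a K27M peak of 10.4 kb and an EZHIP peak of 7.4 kb. Kcnu1, a related sperm channel, was in the K27R list alone (24.2 kb). Kcnn4, the intermediate-conductance channel of lymphocytes and proliferating cells, was in no list.

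Auxiliary subunits alter the gating or trafficking of pore subunits. Of 15 genes, 9 start sites lay in a K27R peak, 3 in a K27M peak and 1 in an EZHIP peak. The calcium-binding Kcnip proteins are partners of the Kcnd channels, and all 4 were in the K27R list. Kcnip3, also known as the transcriptional repressor DREAM, was the gene in all lists, with a region of 267.6 kb, a K27M peak of 92.4 kb and an EZHIP peak of 16 kb. The K27M peak also held the starts of Gm17601, which overlaps Kcnip3, and Prom2. The EZHIP marking was split into more pieces. All 4 K27M peaks in the region covered 62.6% of it, and all 12 EZHIP peaks 52.2%. Kcnip1, Kcnip2 and Kcnip4 lay in K27R peaks of 14.2, 32.6 and 34.0 kb alone. Kcnip1 had another transcript start 150.0 kb from its 5′ end that lay in a K27M peak of 2.8 kb and an EZHIP peak of 1.4 kb.

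The Kcnmb proteins are the beta subunits of Kcnma1 channels. Kcnmb2 had a K27R peak of 14.4 kb and a K27M peak of 2.0 kb, and Kcnmb4 had peaks of 11.6 kb and 5.0 kb, with the nearest EZHIP peak 915.0 and 341.0 kb away. Kcnmb1, which overlaps Kcnip1, had K27R over 60.6% of its body and none at its start, and Kcnmb3 was in no list. Of the Kcne genes, whose short proteins tune Kcnq1 and Kcnh2 currents, Kcne1, Kcne2 and Kcne3 lay in separate K27R peaks of 67.2, 59.0 and 54.0 kb, although Kcne1 and Kcne2 start only 67.1 kb apart. At Kcne3 a K27M peak of 1.8 kb began 194 bp from the start and an EZHIP peak of 1.6 kb 394 bp from it, and at Kcne2 an EZHIP peak of 2.2 kb began 1.57 kb from it. Kcne4 had a K27R peak over 96.8% of its body that began 99 bp from the start. None of the 3 Kcnab genes, whose products are cytoplasmic beta subunits of the Kcna channels, had a start in any list. Kcnab2 had K27R over 57.8% of its body.

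The K27M peak over the start was narrower than the K27R region for 50 of 51 genes, Kcnh3 being the exception, and the EZHIP peak for 38 of 38. The peak extended at least 1 kb to each side of the start for 45 of 51 genes in the K27M list (88.2%, against 86.1% of all genes in that list) and for 36 of 38 in the EZHIP list (94.7%, against 83.9%). Peaks over these starts had a median width of 59.0 kb in the K27R list (65 peaks, 4.6 to 729.0 kb), 13.6 kb in the K27M list (50 peaks, 1.8 to 94.0 kb) and 9.6 kb in the EZHIP list (37 peaks, 2.6 to 36.4 kb). The same medians for peaks over the start of any autosomal protein-coding gene were 52.0, 10.0 and 8.0 kb. With peaks up to 10000 bp apart merged, the medians over potassium channel starts were 59.0, 13.9 and 12.2 kb. The K27M and EZHIP medians were then closer together. The comparisons that follow use the single unmerged peak over the start and leave out other peaks nearby. In the 38 genes of all lists, the EZHIP peak lay wholly inside the K27M peak for 33. The K27M peak was the wider for 32, the EZHIP peak for 5, Kcnh4, Kcnj9, Kcnj10 and Kcnk15 among them, and 1 was equal. The median ratio of K27M to EZHIP width was 1.65, and 12 genes had a ratio above 2. The counts of narrower, enclosed and wider peaks and this ratio were not computed over all genes. The median widths over all genes, given above, fell in the same order, so these counts do not set potassium channel genes apart. The K27M peak reached farther downstream than upstream of the start for 35 of 51 genes (68.6%), against 61% of all genes in that list, and the EZHIP peak for 29 of 38 (76.3%), against 63%. These differences from all genes were not tested.

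Some of the 13 genes in the K27M but not the EZHIP list were near misses. An EZHIP peak lay within 2 kb of the start for 4 of them, Kcnh6, Kcnj2, Kcnj3 and Kcnk10, all with the peak on the gene side. The median distance to the nearest EZHIP peak was 341.0 kb, from 0.02 to 1480 kb. Among the 20 genes in the K27R list alone, a K27M peak lay within 2 kb for 2 genes and an EZHIP peak for 2. Of these 20 regions, 8 held a K27M peak somewhere and 5 an EZHIP peak.

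**Figure D4:**
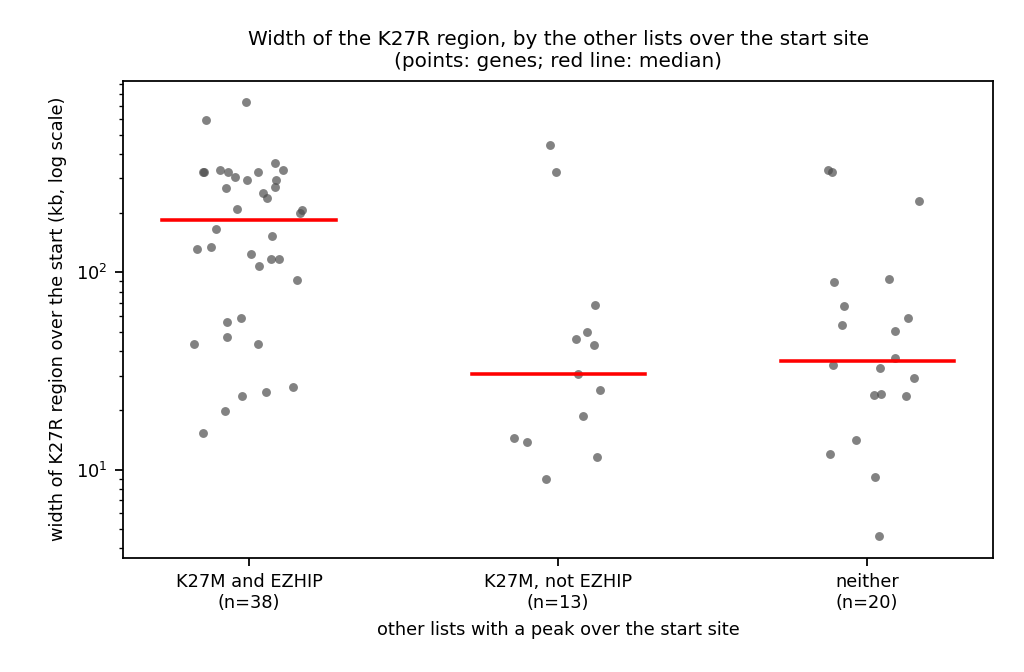
Points give the width in kb (log scale) of the K27R region over each start, split by whether the start also lay in K27M and EZHIP peaks, in a K27M peak alone or in neither, and red lines are medians. The medians are 183.0, 30.4 and 35.5 kb for 38, 13 and 20 genes.

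The genes in all lists came from wider K27R regions. The median width of the K27R region was 183.0 kb for those 38 genes, 30.4 kb for the 13 in K27R and K27M, and 35.5 kb for the 20 in K27R alone. In regions of at least 100 kb, 90.6% of 32 genes were in the K27M list and 84.4% in the EZHIP list. In regions of 20 to 100 kb these shares were 53.6% and 32.1% of 28 genes, and below 20 kb 63.6% and 18.2% of 11. The lowest K27M share was thus in the middle range, while the EZHIP share was higher in each wider range. Among all genes both shares were higher in each wider range, from 20% and 12.7% below 20 kb to 36.8% and 36.1% from 100 kb. Wide regions often hold several genes. For the 38 potassium channel genes with no other protein-coding start in their region the shares were 60.5% and 34.2%, and for the 33 that shared a region 84.8% and 75.8%. For all genes these shares were 34.5% and 28.8% alone, and 29.8% and 27.7% with other starts.

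**Figure D5:**
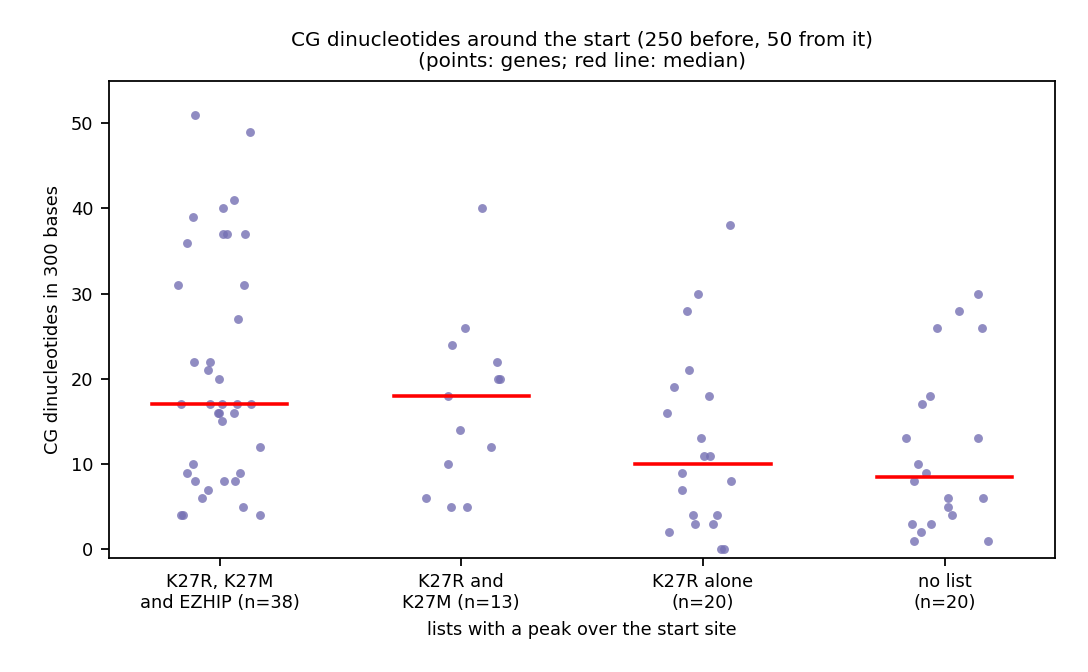
Points give the number of CG dinucleotides in the 300 bases around each start, by the lists that held a peak over it, and red lines are medians. The medians are 17, 18, 10.0 and 8.5 CG, and single promoters with few CG occur in every group.

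CG content, which the choice of genes did not use, varied with the lists. A CpG island lay within 500 bp of the start for 31 of the 38 genes in all lists (81.6%), 6 of the 13 in K27R and K27M (46.2%), 8 of the 20 in K27R alone (40%) and 6 of the 20 in no list (30%). The same shares over all genes were 78.2%, 71.3%, 26.1% and 57.2%. The shares of the potassium channel genes rest on 13 to 38 genes each and were not tested against those of all genes. The median number of CG in the 300-base window was 17 and 18 in the groups with a K27M peak, 10.0 in K27R alone and 8.5 in no list. Over all genes these medians were 18, 16, 5.0 and 14. The differences from all genes were not tested. Counts were not a divider, since Kcna5, Kcna7 and Kcng4 had 4 CG each and lay in all 3 lists, while Kcnj6 had 30 and was in the K27R list alone.

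The same comparison was made among promoters with and without an island. Of the potassium channel genes in the K27R list with an island, 82.2% (67.9 to 92) were in the K27M list and 68.9% (53.4 to 81.8) in the EZHIP list, against 55.9% and 48.8% of all such genes. Without an island the shares were 53.8% (33.4 to 73.4) and 26.9% (11.6 to 47.8), against 13.1% and 12.4%. The value for all genes lay below the interval in each case except EZHIP without an island.

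Other channel and receptor genes gave a scale for these shares. Genes for glutamate, GABA and glycine receptors were close to the potassium channel genes in the K27R list, with 77.3% of 44 start sites, and had 50% in the K27M list and 31.8% in the EZHIP list. Voltage-gated sodium channel genes had 69.2, 38.5 and 30.8% (13 genes), and voltage-gated calcium channel genes 60, 40 and 24% (25 genes). The hyperpolarization-activated and cyclic nucleotide-gated channels had 77.8, 33.3 and 22.2% (9 genes). Transient receptor potential channels were lower, at 40, 12 and 12% (25 genes). These lists were drawn by symbol and include Trpc4ap and Grid2ip, which are no channels. None of the 8 Clcn chloride channel genes lay in any list. The intervals of the potassium channel genes overlapped those of the receptor and sodium channel genes in every list. They also overlapped those of the calcium channel and the hyperpolarization-activated and cyclic nucleotide-gated channel genes in every list. Those of the transient receptor potential channels lay below them in every list. The differences were not tested.

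Proteins that assemble with potassium channels but bear other names were also looked up. Of 10 such genes, 8 start sites lay in a K27R peak, 4 in a K27M peak and 4 in an EZHIP peak. Abcc8, the sulfonylurea receptor that partners Kcnj11 in the beta cell, was in all 3 lists, as were Lrrc26 and Lrrc38, gamma subunits of Kcnma1 channels. By their annotated starts, Kcnj11 and Kcnma1 themselves were in the K27R list alone. Dpp10, a partner of the Kcnd channels, was in K27R and K27M, and Amigo1, a partner of Kcnb channels, was in K27R and EZHIP. Abcc9, Lrrc52 and Lrrc55 were in K27R alone, and Dpp6 and Kcnrg in none.

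Genes typical of some cell types were also looked up. The start sites of 12 fibroblast genes, Col1a1, Vim and Thy1 among them, lay in no peak of any list. So did those of 71.7% of all genes, so that lying in no list does not by itself identify the cell type. Of 6 neuronal genes all 6 lay in a K27R peak, 5 in a K27M peak and 3 in an EZHIP peak, against 28.2, 8.93 and 7.96% of all genes. Of 4 epithelial genes 2, 1 and 1 did so, and of 3 blood genes 2, 1 and 1. The epithelial genes Krt8 and Krt18 were in no list, like the fibroblast genes. Over the autosomes the lists held 12093 (K27R), 3338 (K27M) and 4890 (EZHIP) peaks with median widths of 15.6, 6.8 and 4.5 kb, so that the lists differed in how much of the genome they named.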

How the data were processed

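H3K27me3 ChIP-Seq peak lists of 3 libraries (K27R, K27M and EZHIP, 1 library per group) were used out of 5 libraries in the series, grouped by sample title. Per the labels, crosslinked chromatin was digested with MNase before immunoprecipitation and reads were aligned with Bowtie 1.0.0 to mm9, with dm6 as the other build named. By the study's methods the authors called broad peaks with MOSAiCS-HMM for each library, joining regions across gaps and discarding small ones. The deposited lists hold chromosome, start and end of each peak and no score, signal or p-value, so the depth is unknown and no stricter threshold could be applied. Whether scaling to the reference genome entered the calls is not given in the sources used here.

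Peak ends lay on bins of 200 bp, and a peak was taken as whole bins, counted from 1. The NCBIM37 (mm9) sequence and GENCODE vM1 were used, and 21418 protein-coding records were collapsed by symbol and chromosome to 21281 genes, keeping the longest model. The start was the annotated 5′ end. CpG islands (22374 on the autosomes) had a length over 200 bp, G+C of 50% or more and an observed CpG count above 0.6 of that expected. The genes, classes and lists were chosen with earlier results of these data known. Named with values were every gene in a K27M or EZHIP peak, the genes in the 3 widest K27R regions, genes within 200 kb of another, and genes marked in the body only. The remaining genes were given by name, except a few that are counted but not reported here. Alternatives were other start definitions, wider windows, minimum widths, merging of peaks within 10000 bp, other body overlaps, means, and subsets of genes. The interval and island code was tested on simulated data. No replicates exist, so shares have exact Clopper-Pearson intervals (95%) for counting error and no p-value was computed. Scripts ran in Python 3.11.15 with scipy 1.17.1, pandas 2.3.3, numpy 2.4.6, numba 0.67.0 and matplotlib 3.10.9.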

Additional observations from a re-analysis of the deposited data

How the results depend on the processing

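Of 83 recomputed values, 75 kept within 1.5 times the reported count or within the spread of widths, and 8 moved. Where at least 50% of the gene body had to be covered, 21 genes overlapped a K27M peak and 18 an EZHIP peak. The mean width of peaks over the starts was 133043.1 bp in the K27R list and 18420 bp in the K27M list. Chosen after seeing the data, a count of only those genes with no other protein-coding start in their K27R region gave 38 in the K27R list, 23 in the K27M list, 13 in the EZHIP list and 13 in both of the latter, which drops 33 genes by construction. The shares fell too. Of these 38 genes 60.5% were in the K27M list and 34.2% in the EZHIP list, against 71.8% and 53.5% of the 71. For all genes alone in their region the shares were 34.5% and 28.8%. With any annotated transcript start, 53 genes were in the K27M list and 44 in the EZHIP list, and with a window of 2000 bp around the start the counts were also 53 and 44. With 1 gene counted per K27R region, which was also chosen after seeing the data, 65, 45 and 32 genes were in the K27R, K27M and EZHIP lists. No paired analysis was possible because each group had 1 library and no result came from a test. No stricter score was run, because the lists carry none. Depth is unknown, so that a start outside a peak may carry H3K27me3 below what the caller detected.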
